A study of Mus musculus with 4 samples.

Results

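Broad accessible sites, stretches of 1000 bp or more that were open to DNase I, made up 301 of the 40214 consensus sites (0.748%) of naive CD8 T cells. Overlapping peaks of the 4 libraries, taken from the longer of each library's peak lists on chromosomes 1 to 19, were joined by 1 bp or more, and a consensus site was one called in at least 3 libraries. The broad sites were thus chosen by their merged width and their calls, and everything said below of width, peak number and peak height is a description with no test. In all, 84292 joined sites were found before the calls were counted. The number of broad sites depended on which libraries were joined: with all of the other 3 libraries needed it was 109 without replicate 1, 126 without replicate 2, 78 without replicate 3 and 265 without replicate 4, and with replicate 3 left out and 2 of the other 3 needed it was 128.

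The assay was DNase-seq: nuclei are treated with DNase I, an enzyme that cuts open chromatin, and the cut ends are sequenced. The cells were labelled CD8-positive naive resting alpha-beta T and came from adult, virgin female B6CASTF1/J mice, the hybrid offspring of a laboratory and a wild-derived strain, at an age of 2 months. The 4 libraries are labelled biological replicates 1 to 4 of 1 untreated group, so no condition was compared. One donor identifier is shared by all of them, with nothing to show separate animals, so the spread between libraries may be technical.

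Most accessible sites are short gaps between nucleosomes that a few DNA-binding proteins hold open. Longer open stretches are known from the promoters of CpG islands, where unmethylated CpG-rich DNA disfavours nucleosomes, and from clusters of enhancers around genes that define a cell's identity. A footprint is a short stretch inside an accessible site that is cut less often than its surroundings because a protein covers it.

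The following sequences, 250 bases each on the plus strand of mm10 and clear of annotated UTRs, show how unlike the broad sites are in composition; capitals mark bases inside footprints of at least 2 libraries. They are the window with the most such bases in the widest broad site near a start (Tnfaip3, chr10:19008314-19008563), in the widest one centred away from starts (Cdk6, chr5:3342125-3342374), in the broad site richest in CpG (Prdm2, chr4:143212302-143212551) and in the one poorest in CpG (nearest coding start Muc3, chr5:137151468-137151717).
Tnfaip3: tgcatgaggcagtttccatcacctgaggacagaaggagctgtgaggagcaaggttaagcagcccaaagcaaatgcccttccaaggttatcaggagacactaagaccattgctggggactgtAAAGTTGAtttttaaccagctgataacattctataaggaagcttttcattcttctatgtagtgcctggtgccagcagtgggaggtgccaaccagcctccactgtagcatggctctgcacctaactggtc
Cdk6: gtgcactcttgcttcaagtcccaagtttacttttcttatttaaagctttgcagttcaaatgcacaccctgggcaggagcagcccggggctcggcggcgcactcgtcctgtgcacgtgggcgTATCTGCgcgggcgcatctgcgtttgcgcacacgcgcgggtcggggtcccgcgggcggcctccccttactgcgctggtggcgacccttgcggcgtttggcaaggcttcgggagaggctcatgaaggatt
Prdm2: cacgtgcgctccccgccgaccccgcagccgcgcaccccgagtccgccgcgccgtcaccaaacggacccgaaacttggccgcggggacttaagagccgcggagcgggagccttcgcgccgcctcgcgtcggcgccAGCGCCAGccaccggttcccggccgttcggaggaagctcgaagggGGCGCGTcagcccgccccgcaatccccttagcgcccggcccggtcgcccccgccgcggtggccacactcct
Muc3: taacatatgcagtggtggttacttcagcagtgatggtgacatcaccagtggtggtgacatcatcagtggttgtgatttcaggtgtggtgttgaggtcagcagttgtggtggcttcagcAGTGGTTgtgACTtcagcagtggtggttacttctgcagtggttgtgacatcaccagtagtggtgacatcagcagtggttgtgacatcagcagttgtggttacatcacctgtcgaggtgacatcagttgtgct
The Tnfaip3 window has 8 such footprint bases, the Cdk6 window 7, the Prdm2 window 15 and the Muc3 window 10. The CpG observed over expected ratio, the number of CpGs relative to what the C and G content would give, ranged over the broad sites from 0.101 at the Muc3 site, whose window is made of similar short repeated units, to 1.03 at the Prdm2 site.

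Replicate 4 stood apart, with 20120 peaks on chromosomes 1 to 19 against 67426, 68627 and 49769 in replicates 1 to 3, and 25678 footprints against 134569 to 166816. Of the defining markers, peaks lay within 1 kb of a start of Cd8b1 in all 4 libraries but of Cd8a only in replicates 1 and 2, and Cd4 had no peak in any. Relative heights (the highest peak divided by the library's median at sites called in all 4 libraries, 0 where no peak was called) were 0.579, 0.642, 1.01 and 1.67 in replicates 1 to 4 for the B cell marker Pax5 and 0, 0, 0.345 and 0.684 for the B cell marker Cd79a. Over the 4 T cell markers they summed to 2.89, 2.53, 2.66 and 1.54, Csf1r and Alb were at 0 throughout, and Zbtb7b, the helper lineage factor, had 0.249, 0.355, 0.741 and 1.12. The part of these differences in the results was not tested.

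The 10 widest broad sites differed widely in height. The widest of all, 3100 bp at Cdk6 (chr5:3341081-3344180), a kinase that drives entry into the cell cycle, reached 0.359, 0.230, 0.420 and 0 on the scale of relative height (replicates 1 to 4, an order kept for all such values). Its centre lies in an intron, 1101 bp from the nearest coding start, but it holds annotated coding starts on both sides of the centre. The site of 2180 bp at Tnfaip3 (chr10:19006781-19008960), an inhibitor of NF-kappaB signalling, had 0.159, 0.140, 0.242 and 0, and that of 2020 bp at Klf4 (chr4:55529981-55532000), a zinc-finger factor that restrains proliferation, had 0.167, 0.211, 0.328 and 0. All 3 sites were called in replicates 1 to 3 alone, and every value lay below 1, the median of the sites shared by all libraries.

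Others of the 10 widest were as high as ordinary sites. The site of 1940 bp at Ppp2r3d (chr9:124422901-124424840), a regulatory subunit of protein phosphatase 2A, had 2.29, 2.78, 3.02 and 2.77. The site of 1800 bp at Spred2 (chr11:19924141-19925940), an inhibitor of Ras signalling, had 1.55, 1.54, 1.19 and 1.07. The site of 1860 bp at Map3k1 (chr13:111807241-111809100), a kinase of the MAP kinase cascade, had 0.883, 0.662, 0.734 and 1.3. All 3 were called in every library and their values overlapped or exceeded those of the median shared site, which is 1 by definition. The rest of the 10 were a site of 2843 bp in an intron 7999 bp from the Vps37b start, one of 1960 bp at the histone genes Hist1h2be and Hist1h1e, one of 1800 bp lying 3628 bp from the Klf2 start, and one of 1800 bp at Kctd12, with which a site at Crim1 was tied in width.

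**Figure D1:**
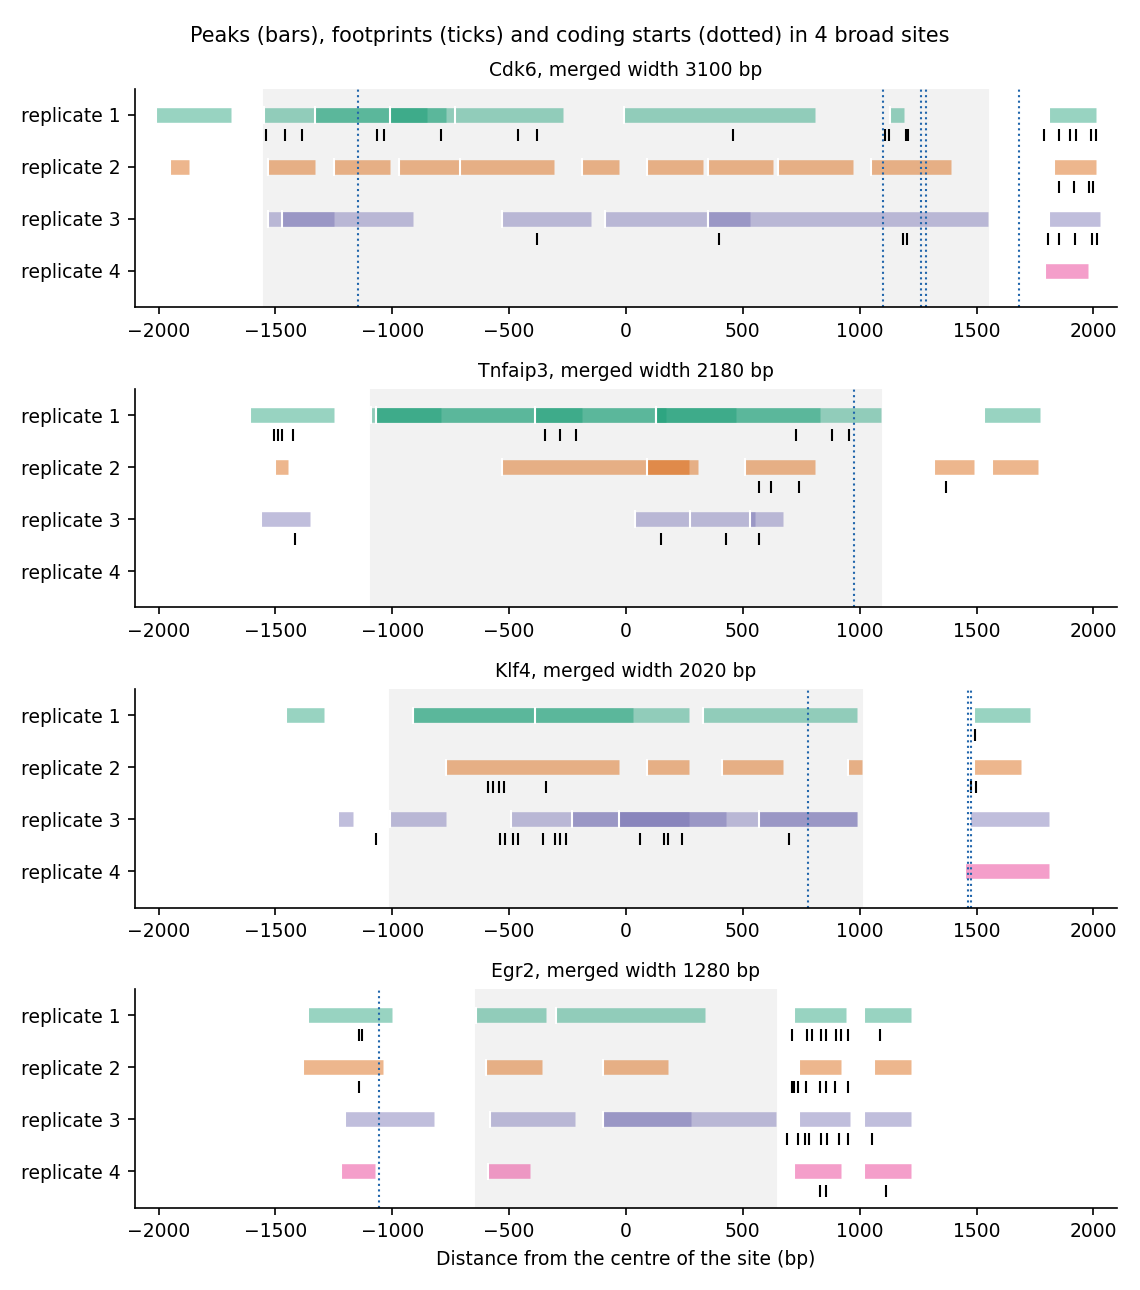
Peaks of each library (bars, darker where peaks of 1 library overlap, white lines at their starts), footprints (black ticks) and coding starts (dotted blue) by distance in bp from the centre of 4 broad sites, with the merged site shaded. The merged widths of 3100, 2180, 2020 and 1280 bp come from peaks that tile the site differently in each library, and the Egr2 site has no footprint in any library although both neighbouring stretches do.

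The 10 highest broad sites all lay near a start, and most were little over 1000 bp wide. Cic, a transcriptional repressor, had a site of 1020 bp with relative heights of 3.49, 3.38, 3.77 and 3.09, and Cdk9, the kinase that releases paused RNA polymerase II, one of 1040 bp with 2.54, 2.44, 2.94 and 3.18. Hnrnpa1, a splicing factor that shares its site of 1025 bp with Cbx5, a heterochromatin protein, had 2.31, 2.68, 3.21 and 1.79. The lowest of these 12 values, 1.79 for Hnrnpa1 in replicate 4, still lay above the median shared site. Lnpep, Tmem259, Arid4b with Ggps1, Rbm15 and Kmt5b, with Ppp2r3d above and a site of 1280 bp at a non-coding start 52181 bp from the Zfp958 start, complete the 10, at mean relative heights of 1.85 to 2.72.

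Some broad sites lay side by side. Within 25 kb of each other, 29 broad sites formed 11 clusters. The largest, 8 consecutive broad sites from near Hip1r to Vps37b (chr5:124002895-124027096), held 12.3 kb of broad sites in 24.2 kb; Vps37b encodes a subunit of the ESCRT-I sorting complex. Its sites of 2843 and 1416 bp abut, with a gap of 0 bp, and count as separate because joined peaks had to share at least 1 bp. None of the 8 was called in replicate 4, their mean relative heights lay between 0.156 and 0.210, and their CpG ratios between 0.158 and 0.379, all below the 0.6 of a CpG island. Tnfaip3 had 3 neighbouring broad sites in 6.94 kb, likewise low (0.0990 to 0.135) and CpG-poor (0.172 to 0.273).

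Klf2, a factor that keeps naive T cells quiescent and able to leave lymphoid tissue, had 2 broad sites 180 bp apart downstream of its start. The nearer, of 1560 bp, had 0.379, 0.274, 0.563 and 0, and the farther, of 1800 bp, had 0.756, 0.593, 0.799 and 0.930. Ccr7, the chemokine receptor that guides naive T cells into lymph nodes, had 2 with a gap of 391 bp. The one nearer the start, of 1020 bp, did not hold the start but had an edge within 1 kb of it. Its relative heights were 0.348, 0.238, 0.550 and 0, and the one in an intron, of 1629 bp, had 0.408, 0.253, 0.481 and 0. At both genes the highest promoter site was a different, narrower one, at a mean relative height of 3.63 for Klf2 and 1.68 for Ccr7. Bach2, a repressor that restrains effector differentiation, had a promoter site of 1380 bp with 0.870, 0.734, 1.01 and 1.37 and an intronic one of 1000 bp with 0.861, 0.630, 0.877 and 0.895. Its highest promoter site was also another, narrower one, at a mean of 2.725.

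Broad promoter sites were counted over 18 gene lists. A broad site with an edge within 1 kb of a start was found for 262 of the 20807 coding genes (1.26%), or 2.23% of the 11736 genes with any consensus site there. The gene count was 106, 127, 76 and 222 without replicates 1, 2, 3 and 4, and 109 with replicate 3 left out and 2 of the other 3 needed. The 222 and the 109 genes were all among the 262. In the list counts below, leaving out replicate 3 means that 2 of the other 3 libraries were needed. Leaving out replicate 4 means that all of the other 3 were needed, a stricter rule. Heights given below for listed genes with a broad promoter site are those of the broad site. It was also the gene's highest promoter site only at Elf1, Rel, Slfn2 and Hnrnpa1. At the others a different site had a higher mean, by least at Fli1 (0.355 against 0.246) and by most at Tnfaip3 (3.635 against 0.135). The lists were chosen with earlier results of these data known, and their counts were not tested.

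Immediate early and activation genes had the highest count, 7 of 25 (28%), while by share the short CD8 lineage list was first, at 33.3%. In order of width they were Tnfaip3, Myc (1600 bp), Egr2 (1280 bp), Zfp36l2 (1280 bp), Junb (1093 bp), Rel (1080 bp) and Zfp36l1 (1080 bp). Myc, the growth regulator, had relative heights of 0.403, 0.436, 0.560 and 0.526, and Zfp36l2, which destabilises AU-rich transcripts, had 0.533, 0.442, 0.795 and 0.965. Rel, an NF-kappaB subunit, was higher, at 1.02, 1.11, 1.37 and 1.97, the highest value in replicate 4, the library with the fewest peaks. Junb, an AP-1 subunit, had 0.630, 0.568, 0.942 and 0.965. With replicate 3 left out and 2 of the other 3 needed, 5 of the 7 kept a broad site (Junb, Rel, Tnfaip3, Zfp36l1 and Zfp36l2). With replicate 4 left out and all of the other 3 needed, all 7 did.

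The naive and quiescent T cell list had 5 of 24: Klf2, Slfn2 (1500 bp), Foxo1 (1420 bp), Bach2 and Ccr7. Foxo1, a factor that sustains the naive programme, had 0.311, 0.259, 0.389 and 0, and Slfn2, a Schlafen protein needed for T cell quiescence, had 0.328, 0.213, 0.348 and 0. Lymphoid transcription factors had 4 of 21. Zeb1, a zinc-finger repressor, had a site of 1573 bp with 0.934, 0.593, 0.638 and 0.895, and Elf1, an ETS factor, one of 1100 bp with 1.44, 1.22, 2.17 and 1.93. Fli1, another ETS factor, had 0.282, 0.238, 0.464 and 0, and Id2, an inhibitor of E proteins, 0.419, 0.379, 0.433 and 0.632. With replicate 3 left out, 4 of the 5 naive genes (all but Klf2) and 2 of the 4 factors (Elf1 and Fli1) kept a broad site, and with replicate 4 left out 4 (all but Bach2) and 3 (all but Elf1).

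In the CD8 lineage list 2 of 6 genes had one. Runx1, which takes part in silencing Cd4, had a site of 1200 bp with 0.291, 0.276, 0.355 and 0.386, and Patz1, a factor bound at the Cd8 locus, one of 1340 bp with 0.319, 0.230, 0.328 and 0.474. Neither was kept with replicate 3 left out, nor was that of Satb1, the chromatin organiser that was the 1 of 21 T cell identity genes with a broad site (1260 bp; 0.751, 0.553, 0.857 and 0.807). Cd8b1 reached 600 bp, Lef1 880 bp, Foxp1 720 bp, Il7r 340 bp, Bcl11b 300 bp and Ets1 260 bp, while Cd8a, Cd4 and Tcf7 had no consensus site within 1 kb of a coding start. Of the fixed set of named genes, only Klf2 (1560 bp) and Ccr7 (1020 bp), described above, had a site of 1000 bp or more with an edge within 1 kb of a start. The Klf2 site was centred in an exon, 1768 bp from the start.

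The counts of the other lists were low. None of 19 housekeeping genes and none of 20 cytosolic ribosomal protein genes had a broad promoter site, although every one of them had a consensus site; at the 2.23% of all such genes, 0 in lists of this size is near the background. Their widest sites had median widths of 400 and 330 bp at median heights (highest site of each gene) of 2.54 and 2.15, against 360 bp and 1.33 over all 11736 genes, 650 bp and 1.97 for the immediate early list and 734 bp and 1.68 for the naive list. Actb, encoding cytoplasmic actin, reached 400 bp at 4.74, 4.14, 4.55 and 4.33. The splicing list had 1 of 14 (Hnrnpa1) and the cell cycle list 1 of 19 (Cdk6). No member of the interferon response (15), cytotoxic effector (15), silent developmental CpG island (19), B cell (13), myeloid (13), NK cell (8), erythroid and platelet (9), hepatocyte (8) or neural (7) lists had one, and few of these genes had any consensus site in the hepatocyte (0 of 8), NK cell (2 of 8) and developmental (3 of 19) lists.

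**Figure D2:**
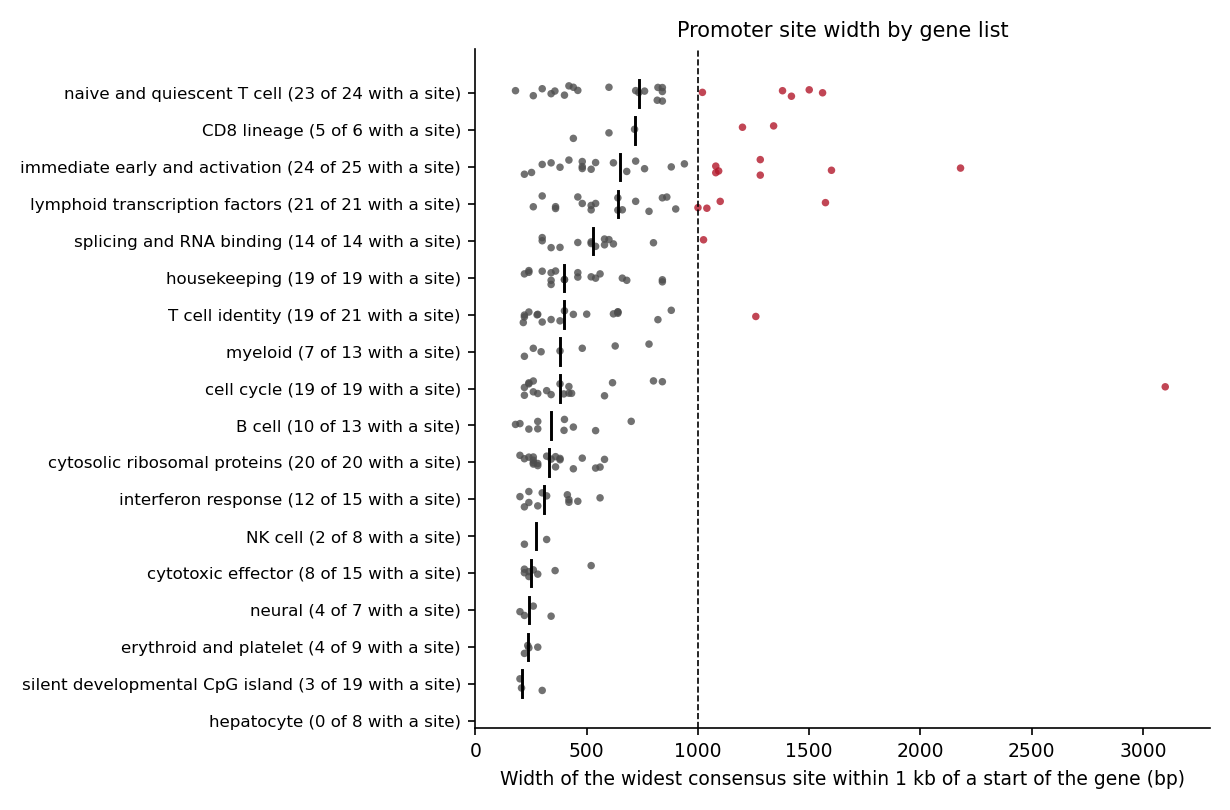
Width in bp of the widest consensus site within 1 kb of a start (x axis) for each gene of 18 lists (rows, sorted by median), with 1 point per gene, red at 1000 bp or more, and a bar at the median. The naive list has a median of 734 bp and the immediate early list 650 bp, against 400 bp for housekeeping and 330 bp for ribosomal protein genes.

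Most broad sites were composed of several peaks. The median merged width was 1137 bp (quartiles 1040 and 1340), against 240 bp in the other 39913 consensus sites; 118 sites were shorter than 1100 bp and 39 reached 1500 bp. A single peak of 1000 bp or more lay in 74 of the 301 (24.6%), and in at least 2 libraries in 5 of them. Peaks of 1 library can overlap each other, and did so inside 250 broad sites (83.1%) and in 4.36% of the narrower ones; with overlapping or touching peaks of a library joined, 139 broad sites (46.2%) held an unbroken run of 1000 bp or more in some library and 162 reached that width only when libraries were combined. The bases covered in at least 3 libraries had a median of 540 bp, 47.1% of the width.

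The libraries differed in how they tiled these sites. The longest peak in a broad site had a median of 600, 380, 660 and 97 bp in replicates 1 to 4, and 30, 5, 47 and 3 peaks of 1000 bp or more were called in each. Of the broad sites, 301, 301, 301 and 166 were called, so that all 135 sites called in 3 libraries lacked replicate 4. Within a library, the peaks of a site were alike in height, the next highest having a median of 81.3%, 75.2%, 86.6% and 81.9% of the highest.

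Broad sites did not stand out in height. Their mean relative height had a median of 0.327 (quartiles 0.206 and 0.538), against 0.348 (0.178 and 0.867) for narrower sites. A mean of 1 or more was reached by 27 broad sites (8.97%) and by 21.8% of the narrower. Near starts the medians were 0.354 and 0.674, and away from starts 0.229 and 0.259. Over broad sites the heights of 2 libraries had Spearman correlations of 0.850 to 0.922 among replicates 1 to 3 (301 sites) and 0.785 to 0.851 with replicate 4 (166 sites), and width and height one of 0.0306; sites share libraries and depth, so these are descriptions only.

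**Figure D3:**
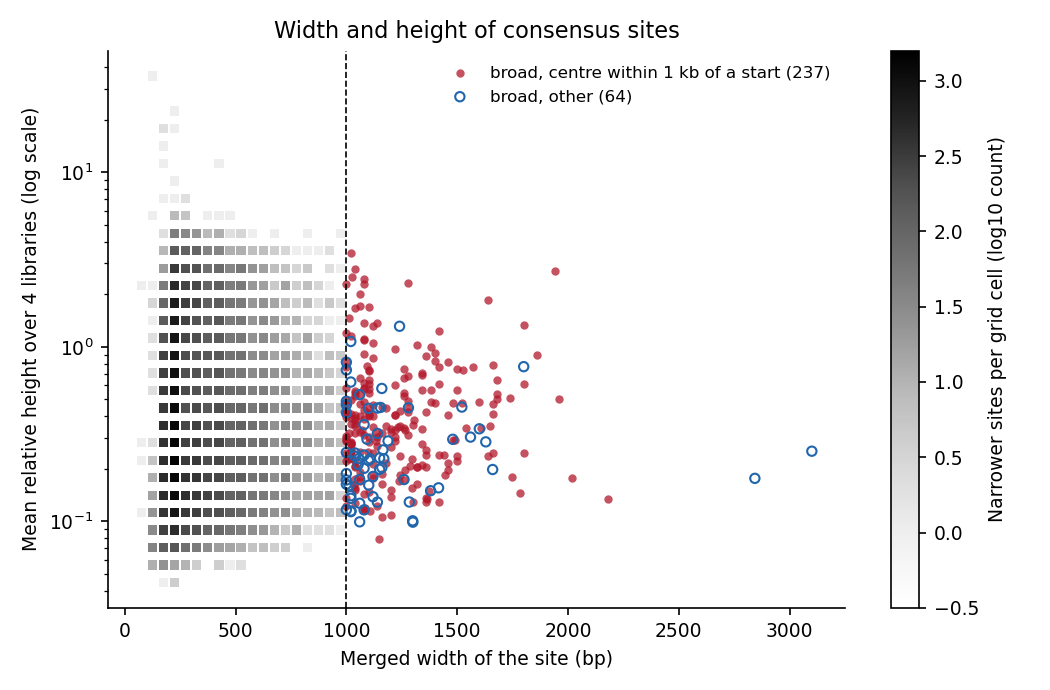
Merged width in bp (x axis) against mean relative height over 4 libraries (y axis, log scale) of broad sites (points, coloured by distance to a start) and counts of narrower sites per grid cell (grey, log10). Broad sites lie within the height range of the narrower ones and none exceeds 3.43, whereas narrower sites reach 33.2.

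Compared at equal height, broad sites lay at transcription starts far more often than narrower ones. For this comparison, the narrower sites were weighted to the 10 height bins set by the deciles of the broad sites, and 38910 of them fell in the range. A site centre lay within 1 kb of an annotated start in 237 broad sites (78.7%), against 38.9% of narrower sites of equal height; 36 were centred in introns (12% against 30.1%), 8 in exons (2.66% against 4.51%) and 20 between genes (6.64% against 26.5%). Counted by the nearest edge, which favours wide sites, the share was 84.7% against 40.2%, and 46 broad sites had no start within 1 kb of either edge. Near coding starts the broad sites leaned into the gene: the centre lay downstream of the nearest coding start in 63.8% of 229 sites, a mean of 154 bp downstream, against 51.8% and 64.8 bp. Coding starts on both strands were about as frequent, at 6.55% and 6.98%.

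Broad sites were also richer in CpG. The CpG ratio averaged 0.696 against 0.432 at equal height, and GC content 62.2% against 54.9%. A ratio of 0.6 or more with a GC content of 50% or more, as in CpG islands, was met by 225 broad sites (74.8%) and by 26.6% of narrower sites. The gap was smaller within each class of location: near starts the ratios were 0.760 and 0.629 (237 broad sites), and away from starts 0.457 and 0.286 (64 sites). Matched on height and on start together, the difference in the ratio was 0.140 in place of 0.264, and that in GC content 3.68 in place of 7.31 percentage points. In the highest of the 10 bins the ratio was 0.805 against 0.743, a smaller gap than in the lowest bin, at 0.621 against 0.362.

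**Figure D4:**
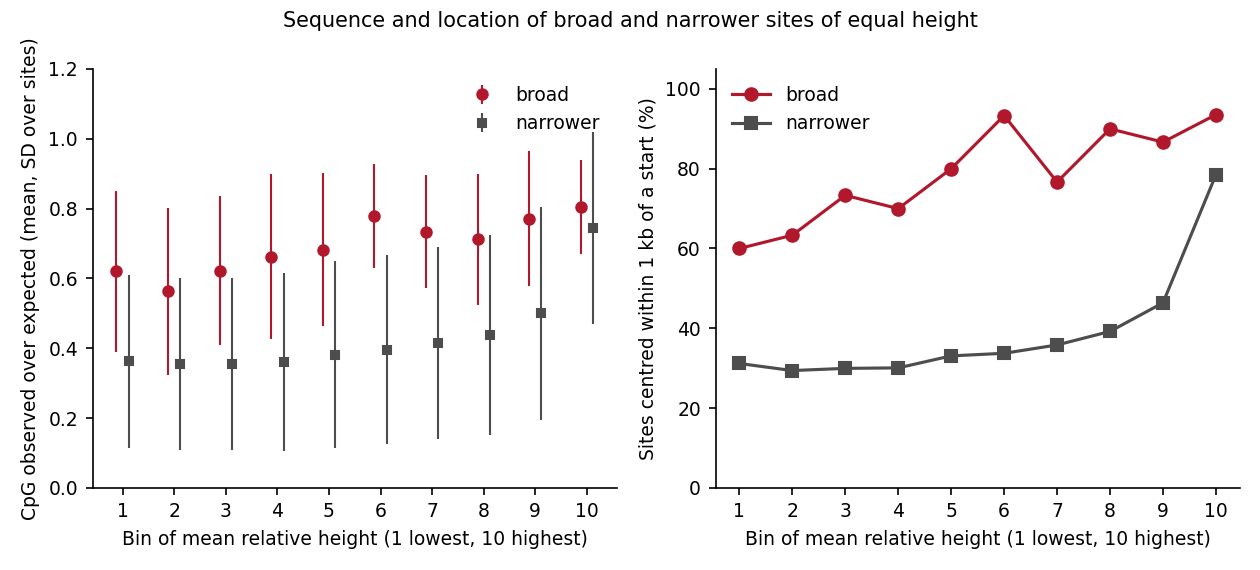
CpG observed over expected (left, mean with SD over sites) and percent of sites centred within 1 kb of a start (right) in 10 bins of mean relative height, for broad sites (red, 30 or 31 a bin) and narrower sites (grey). In the lowest bin 60.0% of broad and 31.2% of narrower sites were near a start, and in the highest 93.5% and 78.5%.

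The sites called in all 4 libraries differed from those that replicate 4 lacked. Of the 166, 92.2% were near a start and the CpG ratio averaged 0.779 ± 0.152 (SD over sites); of the 135, 62.2% were, with 0.593 ± 0.227. Narrower sites were split in the same way, with 65.8% and 29.2% near a start and CpG ratios of 0.649 and 0.351. Median relative heights in replicates 1, 2 and 3 were 0.415, 0.346 and 0.510 in the former and 0.256, 0.202 and 0.304 in the latter. Replicate 4 was the library with the fewest peaks. Its read depth was not stated, and the part of depth in this split was not tested. Exact copies elsewhere in the genome, counted for words of 32 bases, were rare: 299 of 301 broad sites had a median of 1 copy, and the others, near Sfi1 and Cntnap5b, had 2.

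Footprints were sparser in broad sites. Broad sites held 5.77, 4.20, 5.59 and 0.772 footprints per kb in replicates 1 to 4, and narrower sites of equal height 11.1, 10.1, 9.33 and 1.12. The density in broad sites was below that of the narrower sites in 4 of 4 libraries. The values overlapped only through replicate 4, the library with the fewest footprints. The difference averaged -3.83 ± 2.5 per kb (SD, n = 4 libraries; p = 0.13, exact two-sided sign-flip permutation test, the smallest p that 4 libraries allow). Because they are longer, broad sites nevertheless held more footprints each, a mean of 7.09, 5.13, 6.87 and 0.944 per site against 3.04, 2.71, 2.64 and 0.326.

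The size of the gap depended on the denominator. Under each library's own peaks the differences were -5.61, -5.89, -3.61 and 0.386 per kb (mean -3.68 ± 2.90, SD, n = 4; p = 0.25, exact sign-flip permutation), and under each library's highest peak in the site -2.73, -2.23, -2.20 and 0.887 (mean -1.57 ± 1.65; p = 0.25, exact sign-flip permutation). Under own peaks replicates 1 to 3 hardly moved, and under the highest peak their gaps were smaller. Replicate 4 was on the other side of 0 in both, but there the comparison was not at equal height. Its broad mean covers the 166 broad sites with a peak in replicate 4, whereas narrower sites were weighted to the heights of all 301. Both averages over libraries include this value. The difference in whole sites was also present near starts (-3.67, -4.18, -2.90 and -0.434) and away from them (-5.30, -5.82, -3.19 and -0.201). Within broad sites, the 250 bp at the centre held 5.83, 3.79, 6.03 and 0.585 footprints per kb in replicates 1 to 4, and the outermost zone, up to 500 bp from the centre, 6.09, 4.48, 5.09 and 0.917. The outer zone was thus higher in 3 libraries and lower in replicate 3. Bases inside a footprint of any library made up 12.3% of broad and 24.6% of narrower sites in the same height range.

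**Figure D5:**
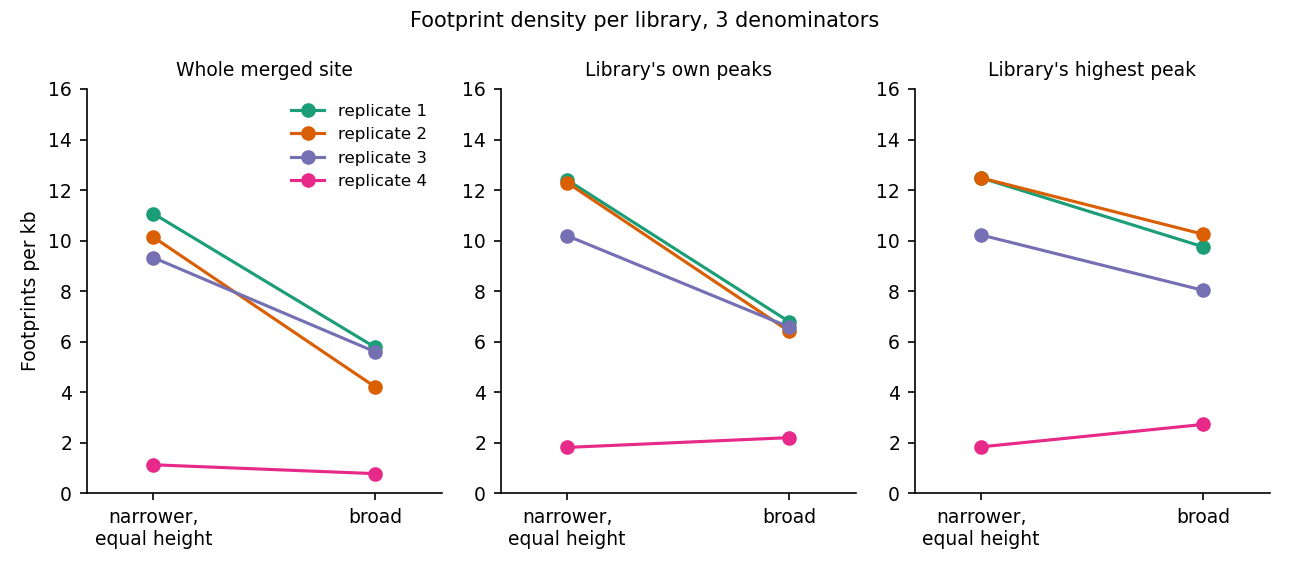
Footprints per kb in narrower sites of equal height and in broad sites, 1 line per library, over the whole merged site (left), under the library's own peaks (middle) and under its highest peak in the site (right). Replicates 1 to 3 fall from narrower to broad in all panels, whereas replicate 4 falls only over the whole site. In the middle and right panels replicate 4 is not compared at equal height, because broad sites without a peak there drop out.

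Among broad sites, taller ones held more footprints. In replicates 1 to 3 the lowest tercile by relative height had 3.8, 2.30 and 3.25 footprints per kb and the highest 8.99, 6.75 and 9.36; the cuts that make a peak also make its footprints, so the measures share their reads. The densest among sites called in all 4 libraries were Ppp2r3d, with 34, 35, 40 and 13 footprints in replicates 1 to 4, Crlf2, a chain of the receptor for thymic stromal lymphopoietin, with 23, 20, 14 and 5, and Cd164, a sialomucin, with 22, 17, 20 and 3. These amount to means of 15.7, 15.3 and 14.9 per kb, well above the broad sites' average in each library.

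At the other end, 20 broad sites (6.64%, against 3.14% of narrower sites of equal height) had no footprint in any library, 14 of them called in all 4. The widest of the 20 was at Fam84b (1460 bp, not called in replicate 4). The widest of the 14 were Camk2d, a calcium-dependent kinase (1400 bp), Egr2, a zinc-finger factor induced by antigen receptor signals (1280 bp), and Runx1 and Tiparp, tied at 1200 bp. Their peaks were not absent: relative heights were 0.350, 0.262, 0.485 and 0.807 at Camk2d and 0.333, 0.323, 0.485 and 0.649 at Egr2, and 100%, 99.2% and 91.9% of the Camk2d site had a significant cut rate in replicates 1 to 3. Of the 20, 17 were near a start, and their CpG ratio had a median of 0.781 (0.251 to 0.979).

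The deposited cut-rate lists, which give intervals with a false discovery rate below 0.05 and do not depend on where peaks were bounded, covered 97.5%, 88.6%, 93.9% and 31.2% of the bases of broad sites in replicates 1 to 4, against 97.5%, 95.3%, 92.0% and 27.9% in narrower sites of equal height. In the 135 sites without a peak in replicate 4, 0.147% of bases passed there.

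Consensus words were searched on both strands in the central 300 bp of each site, and the shares given are of broad sites, then of narrower sites of equal height, then of narrower sites matched on height and start. The GC box GGGCGG, a site of SP and KLF factors, was in 54.2%, 27.6% and 41.0%. The CCAAT box, a site of NFY, was in 15.6%, 28.4% and 27.0%. Of the 14 words searched, 12 were less frequent in the centre of broad sites than in that of narrower ones of equal height. The other 2 (the GC box and YY1, AAGATGGCG) were more frequent, YY1 at only 1.66% against 0.992%. Per kb of whole sites YY1 was nearly equal, at 0.0405 against 0.0402, and so was the E-box, at 0.2681 against 0.2676. Shares of a few percent rest on few broad sites. Words of T cell factors were among the 12, with TGTGGTT (RUNX) in 3.32%, 9.65% and 7.08%, CTTTGAT (TCF7 and LEF1) in 0.997%, 4.18% and 3.10%, and CCGGAAG (ETS) in 3.65%, 6.69% and 8.64%. So were words of other factors, with AGATAA, of Gata3 and its relatives, in 3.32%, 9.72% and 7.45%, the promoter word TATAAA in 4.98%, 9.24% and 6.87%, and TGANTCA (AP-1) in 4.32%, 7.92% and 6.30%. The words searched for NRF1 (GCGCATGC), the cyclic AMP response element (TGACGTCA), the E-box (CACGTG) and the KLF box (GGGTGTGGC) were also lower. In the 300 bp around 31396 RefSeq starts (GRCm38.p6 promoters) these words were in 36% (GC box), 37.3% (CCAAT), 5.32% (RUNX), 3.76% (TCF7 and LEF1), 9.0% (ETS) and 7.85% (AP-1).

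The CTCF consensus, a word of the insulator protein that marks many of the most accessible sites, was in the central 300 bp of 0 broad sites, against 11.9% and 6.50% of narrower sites and 0.573% of RefSeq promoters. Over whole sites of any length it was in 3 of 301 broad sites (0.997%), against 12% of narrower sites of equal height, or 0.00623 against 0.595 matches per kb. Of broad sites without replicate 3 (128 sites) 1 held it, and at a threshold of 750 bp 13 of 1046. A match is a run of letters and not a bound site, and the centre of a site joined from several peaks need not be the centre of a peak.

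At the threshold, 28 sites were tied at 1000 bp, with mean relative heights of 0.117 to 2.29 (median 0.409). The tallest of these were at Arid4b, Slc1a4 and Zkscan6, with mean relative heights of 2.29, 1.2 and 0.832 and CpG ratios of 0.776, 0.625 and 0.835. Those just outside, nearest to Pank1 (997 bp), Dennd3 (995 bp) and Tle1 (993 bp), had 0.124, 0.535 and 0.253, and 0.402, 0.611 and 0.919.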

How the data were processed

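The 4 libraries form 1 group, per the labels. The authors' deposited peak heights are a signal, scaled per library (whole multiples of a step that differs between libraries), in 2 peak lists per library; the footprint lists hold a deposited p-value or q-value (0.01 throughout, read as a false discovery rate), and the cut-rate lists a deposited p-value or q-value, named by the authors as a false discovery rate, below 0.05. Each list came from the library's own filtered alignment on mm10, per the text deposited with it; the aligner, the peak caller and its settings were not stated in what was read here, nor was the read depth, so the number of peaks stands for it.

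Sites were joined as the report describes (0 sites differed from bedtools 2.31.1), with a height of 0 where no peak was called. Starts were those of GENCODE mouse release 21, sequence that of GRCm38.p6 (equal to mm10), and near a start means a site centre within 1 kb. The reference is of the C57BL/6J strain, whereas the cells are hybrid. Footprints were assigned by centre; their density was compared per library, with an exact sign-flip permutation over libraries. No other difference was tested. Own peaks of a library were joined where they overlap or touch before bases were counted.

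Members, gene lists and motifs were chosen with earlier results of these data known. Named sites are the 10 widest, the 10 highest, the 10 widest away from starts (those near Kcna3, Pfn1 and Hist1h1d are not described further), those with most and fewest footprints, those at the threshold, up to 4 per gene list and a fixed set; list members beyond 4, the no-footprint set and the cluster genes were named after their values were seen. Of the listed genes, 6 (Trac, Trbc1, Trbc2, Tsc22d3, Gata1 and Syp) were not among coding genes of chromosomes 1 to 19. Alternatives were other peak lists, library numbers, widths, left-out replicates, height bins, start windows, sequence windows and footprint counts. The steps were tested on simulated data. Python 3.11.15, numpy 2.4.6, pandas 2.3.3 and numba 0.67.0 were used. One marker and one comparison sequence are not reported here.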

Additional observations from a re-analysis of the deposited data

Results flagged for a closer look

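Of 58 sets of 4 library values examined, 5 had 1 library far from the other 3. In each it was replicate 4, the library with the fewest peaks. The sets share the same 4 libraries, and some heights are 0 because replicate 4 had no call, so the count cannot be set against chance. The difference in footprints per kb under the highest peak, broad minus narrower, was 0.887 in replicate 4 against -2.73, -2.23 and -2.20. In replicate 4 that comparison was not at equal height, as described with the footprint results. The share of bases with a significant cut rate was 31.2% in broad sites against 97.5%, 88.6% and 93.9%, and 27.9% in narrower sites of equal height against 97.5%, 95.3% and 92.0%. The relative height was 0 at the broad site of 1960 bp at Hist1h2be and Hist1h1e against 0.703, 0.598 and 0.720, and 0 at the Cd3e promoter against 0.634, 0.577 and 0.649.

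Chromosome X lies outside the rule that chose the broad sites, and it held sites of the same kind: 10 of its 1002 consensus sites (0.998%) reached 1000 bp, the widest 1680 bp.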

How the results depend on the processing

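Of 121 alternative values, 0 reversed direction and 43 moved. The 13 values for the number of broad sites, 15 for the number of genes and 13 for the single-peak share could not reverse. The 22 footprint values were judged by direction alone and could not be labelled moved. For counts, moved means by over 1.5 times, and for shares, CpG and GC, outside an interval computed over the broad sites. That interval treats sites as independent and does not measure the spread between libraries. The other 78 include differences in size: all footprint values kept their direction and missed the threshold, and touching peaks merged gave 393 broad sites. With replicates left out in turn, broad sites numbered 78 to 265 and genes with one 76 to 222, the start difference was 36.1 to 39.9 percentage points, the CpG difference 0.198 to 0.265, the GC difference 5.54 to 7.45, and the single-peak share 16.7% to 27.2%. Footprint differences ranged from -5.00 to -1.57 per kb over 22 alternatives. The shorter peak list gave 148 broad sites and 136 genes. Calls in all 4 libraries gave 166 and 166, with differences of 0.219 (CpG) and 5.35 (GC). A width of 750 bp gave 1046 and 840, with a single-peak share of 38.0%, and 1500 bp gave 39 and 35, with 0.222, 5.94 and 12.8%. Bases called in at least 3 libraries gave 23 and 23, with 0.230, 4.86 and 56.5%. Replicates 1 and 2 only gave 94, 75 and 30.9%. Replicate 3 left out with 2 of the other 3 needed gave 128 and 109. Touching peaks also merged gave a share of 18.6%. Bins within start classes gave 0.140 and 3.68, and the central 300 bp a GC difference of 10.04. The start difference was 29.6 for a 500 bp window and 44.5 by the nearest edge. The edge, the highest peak alone, touching peaks, replicate 3 with 2 of 3 needed and the gene list counts were added after seeing the data. No paired analysis was possible because there is only 1 group; broad and narrower sites were set against each other within each library. Replicate 4 limits what can be called in all libraries, and 4 libraries cannot give a p below 0.13.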
